A study of Mus musculus with 9 samples.

Results

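Heat shock proteins and their partner chaperones were followed in murine Tc17 cells, the CD8+ T cells that produce IL-17, after culture with dimethyl fumarate (DMF). The genes were picked by name from a table of 41388 genes: the HSP genes, the J-domain genes (Dnaja, Dnajb and Dnajc), the subunits of the chaperonin TRiC (Tcp1 and Cct2 to Cct8), Bag1 to Bag6 and the heat shock factors Hsf1 and Hsf2. Of 89 genes with such a name, 72 had a mean of at least 10 normalized counts over the 9 libraries and are described here, whereas 17 were under that minimum. Just inside it lay Dnajc28 (mean of 17.1), Dnajc12 (24.3) and Hspa2 (27.4), and just outside it Hspb9 (9.07), Hspa1b (8.84) and Dnajb7 (6.59). All cells had started as naive CD62L+CD44-CD8+ T cells sorted from C57BL/6 lymph nodes and spleens, and were activated for 2 days with 5 µg/ml anti-CD3 and 0.5 µg/ml anti-CD28 under 50 U/ml IL-2, 0.5 ng/ml TGF-β, 30 ng/ml IL-6 and an antibody against IFN-γ. All cultures held 0.2% of the solvent DMSO, which Ctrl cultures received alone. DMF cultures also received 20 µM DMF, and DMF + GSH cultures 20 µM DMF together with 50 µM reduced glutathione (GSH). Each group had 3 libraries. The labels name no genetic change in any group and give no age. The comparisons ask which chaperone genes differ between DMF and Ctrl cells and what added GSH does to them.

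Chaperones bind proteins that are not yet folded, or no longer folded, and keep them from clumping. HSP70 proteins hold a client in a cycle driven by ATP, J-domain proteins deliver the client and start the cycle, and exchange factors such as the HSP110 and BAG proteins release it. HSP90 takes over partly folded clients, kinases and transcription factors among them, while HSP60 with its lid HSP10 in mitochondria and TRiC in the cytosol enclose clients in a barrel. Hsf1 is the transcription factor that turns on many of these genes under heat and other stress that harms proteins. DMF is an electrophile that reacts with thiol groups, and GSH is the main small thiol of the cell.

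Libraries held 7671772 to 14511926 reads assigned to genes, and Ctrl replicate 3 was the shallowest, so that a normalized count of 10 stood there for 7.03 reads. All 8 genes of a CD8 T cell list were detected, though they did not move alike. Cd8a had 9483 to 10599 normalized counts in Ctrl, 10923 to 13778 with DMF and 9317 to 12243 with DMF + GSH, whereas Cd4 did not exceed 4.40 in any library. Lck had 8417 to 8719 in Ctrl, 6689.5 to 7956 with DMF and 8126 to 8631 with DMF + GSH, and Cd5 had 4767 to 5096, 3517 to 4494 and 4407 to 4972, so that both were lower in every DMF library than in Ctrl. Cd3d, Cd3e and Cd3g were lower with DMF than in Ctrl within each replicate number, Cd2 was higher within each, and Cd8b1 went both ways. For these genes the Ctrl and DMF libraries overlapped. The part of these shifts in the results was not tested. Of 6 myeloid markers found, Lyz2, Csf1r and Emr1 stood at 119, 58.3 and 45.5 in Ctrl replicate 3 and at no more than 10.6 in any other library. The summed level of these 6 markers was 75.9 to 310 in Ctrl, 58.2 to 71.9 with DMF and 85.6 to 89.8 with DMF + GSH, most of it from Cd68 outside Ctrl replicate 3. Of 4 stromal markers, Pecam1, which T cells also express, had 273 to 737 in Ctrl, 146 to 236 with DMF and 259 to 592 with DMF + GSH, and the summed level of the list was 291.5 to 754.5, 149 to 245.7 and 281 to 605.8. The part of such cells in the results was not tested, but results without Ctrl replicate 3 are given. In bulk RNA, more cells of a kind and more RNA per cell cannot be told apart. The labels do not say whether replicates came from separate mice or cultures, and p-values therefore measure only the spread between these samples.

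With DMF, a large share of the chaperone genes was higher than in Ctrl, and hardly any was lower. The 72 genes together took 1.61%, 1.61% and 1.87% of all reads in Ctrl replicates 1 to 3, 2.10%, 2.07% and 2.23% with DMF, and 1.65%, 1.66% and 1.90% after DMF + GSH. Every DMF library lay above every library of the other groups, and replicate 3 was the highest within each group. By limma on log2(normalized count + 1), with an adjusted p under 0.05 over all 11599 genes tested, 31 of the 72 genes rose, against 14.6% of all genes, and 2 fell, against 13.3% of all genes. Of the 72 genes 53 had a log2 fold change above 0, against 50.6% of all genes. Their median log2 fold change was 0.26, against a median of 0.01 over all genes tested. The 0.26 is the median of all 72 genes. Within the replicate numbers the median was 0.24, 0.23 and 0.19, the first being the only pair of preparation batch 1. In 34 genes all DMF libraries were above all Ctrl libraries, against 21.6% of all genes, and in 4 they were all below, against 19.8%.

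**Figure D1:**
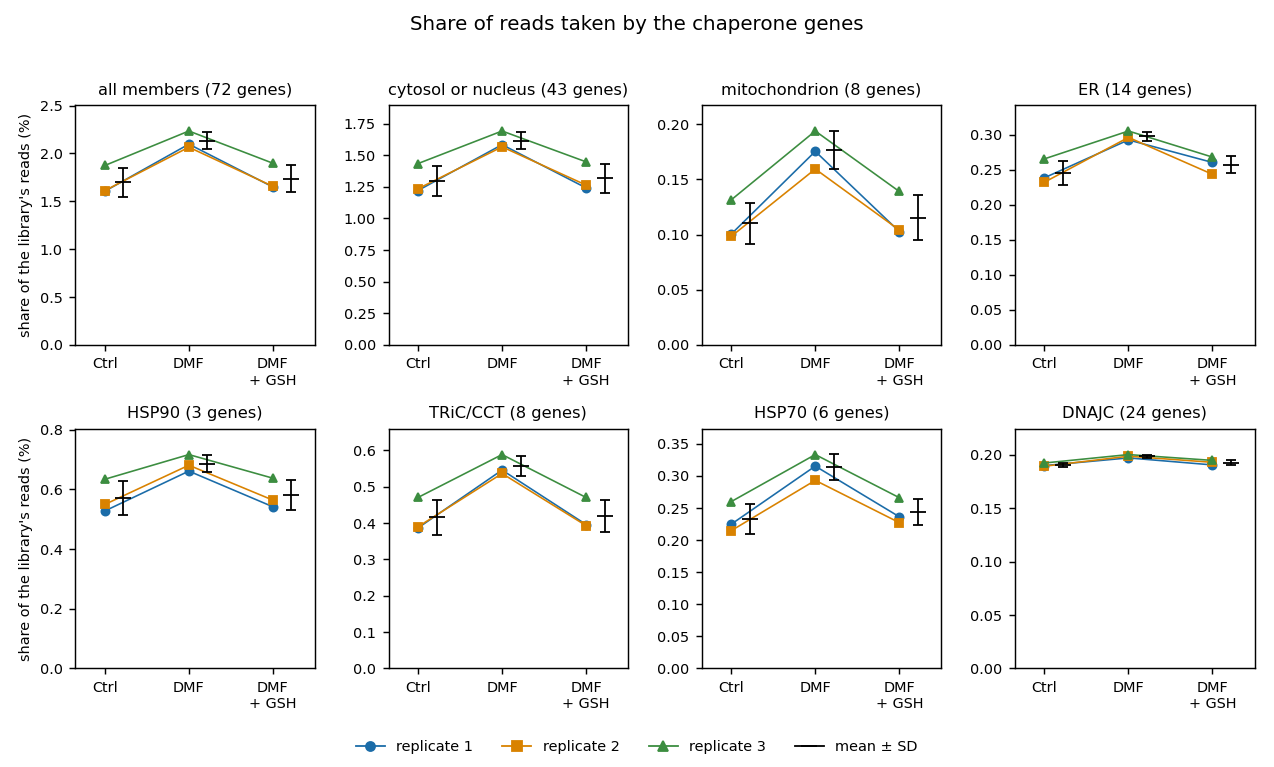
Share of each library's reads taken by all 72 chaperone genes and by sets of them, in percent from 0, for Ctrl, DMF and DMF + GSH. Lines join libraries with the same replicate number, and black marks give mean ± SD (n = 3); for all 72 genes the means were 1.70%, 2.13% and 1.73%.

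The replicate numbers paired the libraries, and with the replicate number as a block 37 genes rose, against 23.7% of all genes, and 6 fell, against 21.4%. Where no block was used, the count of genes that rose varied with the library left out, as did the share of all genes. It was 0 without DMF replicate 1, 3 without Ctrl replicate 1, 9 without DMF replicate 3 and 10 without Ctrl replicate 2, when 0.362%, 2.85%, 4.01% and 5.25% of all genes rose, and 33, against 17.2%, without Ctrl replicate 3. With the block it stayed at 34 to 37 whichever library was left out, against 18.5% to 25.05% of all genes. The count of fallen genes with the block was less steady. It was 1 without DMF replicate 1, against 16.8% of all genes, and 2 without Ctrl replicate 1, against 17.8%. In the other blocked fits 4 to 6 fell, against 17.35% to 22.1%. Of the 9 fits without a block that left out a library, Cct7, Dnaja3 and Bag1 were called in 8, most genes in 5 to 7, Tcp1, Dnajb5 and Dnajc2 in 4, and Bag5, Hspa4l and Dnajb13 in 3. Genes called only with the block differed in the 9 blocked fits that left out a library. Hsp90ab1 and Dnaja1 were called in 9, Dnajc15 in 7, and Dnajc10 and Dnajc9 in 6. Bag3 and Bag4 were called in 5, Dnajb2 in 4, Hspbap1 in 3 and Dnajc28 in 2. The changes were modest in size: under the study's own threshold, an adjusted p below 0.01 with a log2 fold change of 0.75 or more in either direction, Hspd1 was the 1 chaperone gene called, against 2.89% of all genes. Many chaperone genes had high counts, and genes with high counts were called more often. Among genes with a mean of at least 1000 normalized counts, 23 of 35 chaperone genes rose, against 21.3% of all such genes, and below that level 8 of 37 rose, against 12.4%.

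**Figure D2:**
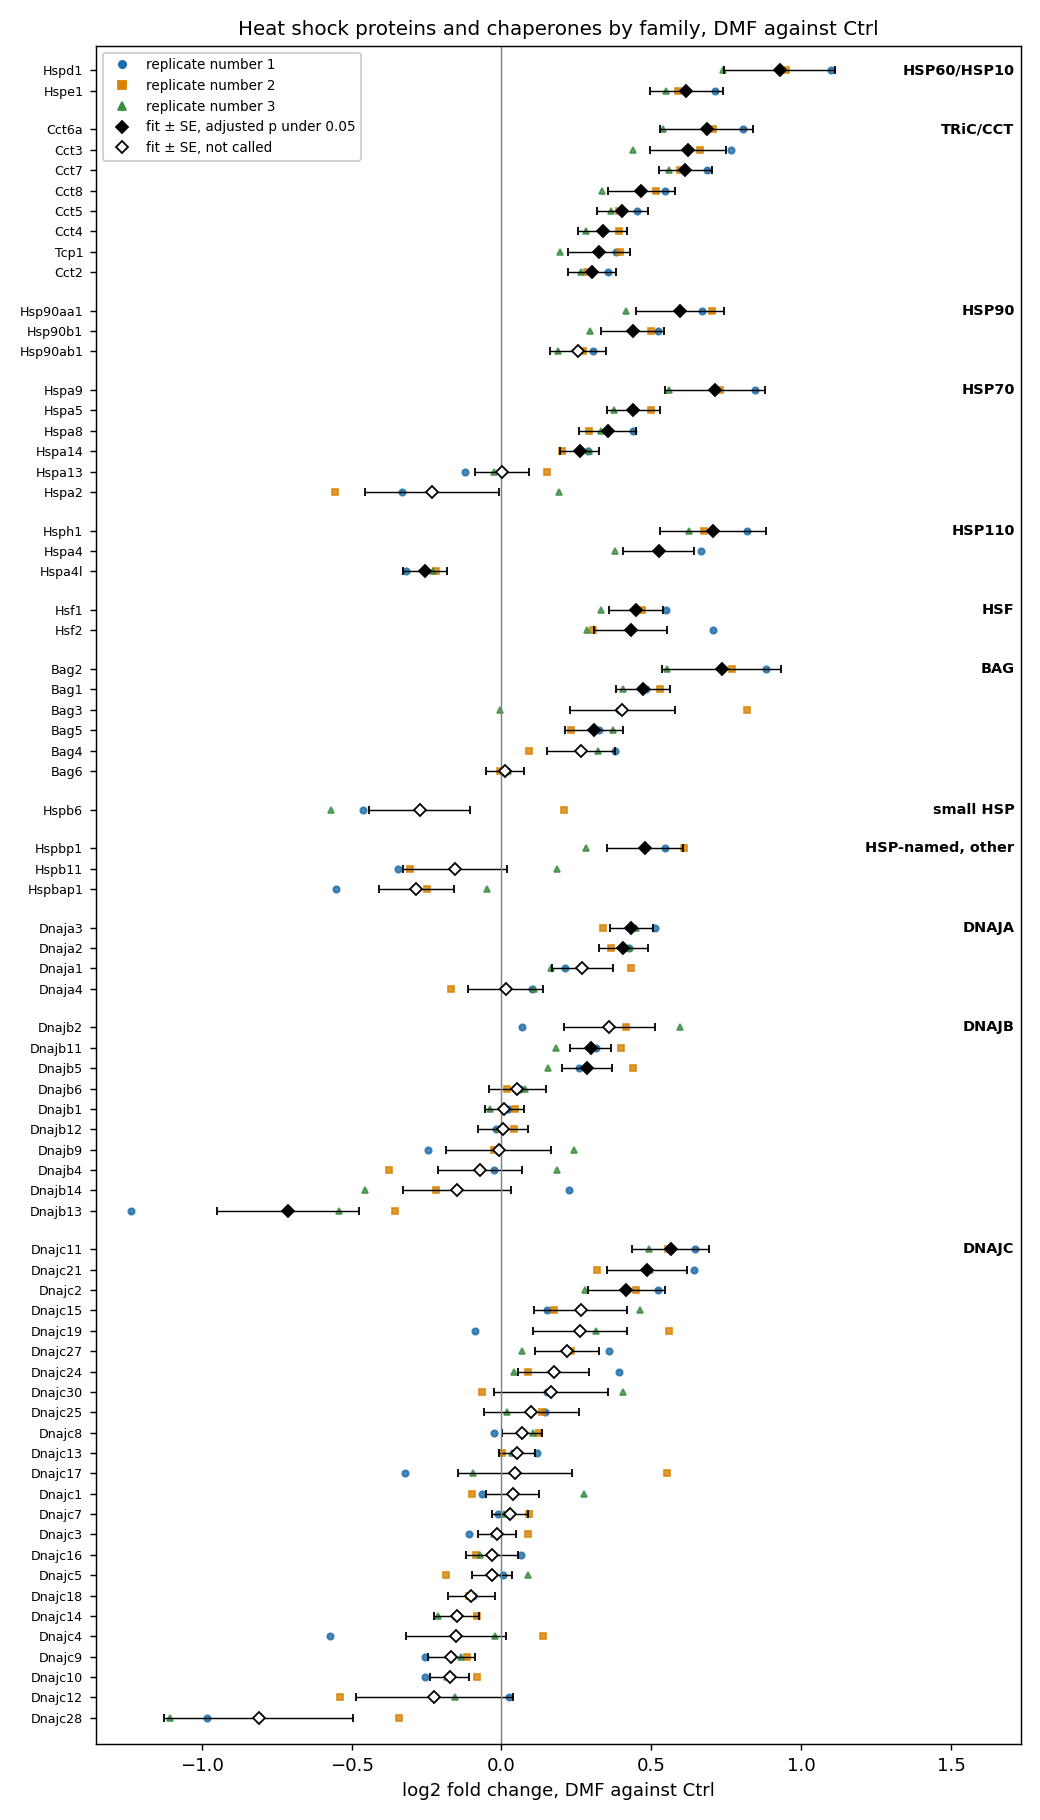
Log2 fold change of DMF against Ctrl for each of the 72 genes, grouped by family. Coloured points are the 3 replicate numbers, diamonds are the fit ± SE, and filled diamonds have an adjusted p under 0.05; the 8 TRiC subunits and the HSP60 and HSP10 genes all lie to the right of 0, while 21 of 24 DNAJC genes are not called.

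Of the cell compartments, the mitochondrion had the highest median difference between DMF and Ctrl. Hspd1, which encodes HSP60, the barrel of the mitochondrial chaperonin, had 2781, 2767 and 4250.4 normalized counts in Ctrl replicates 1 to 3, 5955, 5341 and 7097 with DMF and 3017, 2993 and 4461 after DMF + GSH. All DMF libraries exceeded all others, and replicate 3 was the highest of each group. Its log2 fold change of DMF against Ctrl was 0.93 ± 0.19 (SE, limma adjusted p = 0.00899), 1.90-fold, with 1.10, 0.95 and 0.74 in replicate numbers 1 to 3. Hspe1, which encodes the lid HSP10, had 880.3, 887 and 1069 in Ctrl, 1443, 1336 and 1564 with DMF and 888, 915 and 1218 in DMF + GSH cells. Here too the DMF libraries stood apart from both other groups, and the log2 fold change against Ctrl was 0.62 ± 0.12 (adjusted p = 0.00849). Hspd1 and Hspe1 lie head to head on chromosome 1 (GRCm38, chr1:55077835-55088243 on the minus strand and chr1:55088132-55091307 on the plus strand), and 112 bases of their first exons overlap. That is 7.6% of the Hspe1 exons, and the library kit does not mark strand, so that reads there cannot be assigned to either gene with certainty.

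Hspa9, the mitochondrial HSP70 that also pulls imported proteins into the matrix, had 4781, 4457 and 6509 normalized counts in Ctrl, 8599, 7388 and 9585 with DMF and 4849.7, 4745 and 6714 after DMF + GSH. The groups did not overlap between DMF and either other group, and the log2 fold change with DMF was 0.71 ± 0.17 (adjusted p = 0.0146). Dnaja3, its J-domain partner, had 604, 695 and 673 in Ctrl, 861, 880.0 and 918 with DMF and 630.4, 680.1 and 745 in DMF + GSH cells. This gene had little spread within groups and rose by 0.43 ± 0.07 (adjusted p = 0.00616). Dnajc11, a J-domain protein of the mitochondrial membranes, had 941, 896 and 1176 in Ctrl, 1474, 1317 and 1654 with DMF and 866, 936 and 1151 after DMF + GSH, and rose by 0.56 ± 0.13 (adjusted p = 0.0135). In all, 5 of the 8 mitochondrial genes rose, against 14.6% of all genes, and 0 fell, against 13.3%, and their median log2 fold change was 0.50. The others were Dnajc15 and Dnajc19, which belong to the import motor, and Dnajc30, with log2 fold changes of 0.26, 0.26 and 0.16 that did not pass the test. For Dnajc15 the replicate block gave an adjusted p of 0.00816 against 0.221 without it, and over all alternatives it ran from 0.00816 to 0.627. Of the Dnajc30 exons, 26.25% overlap Bud23 on the other strand.

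**Figure D3:**
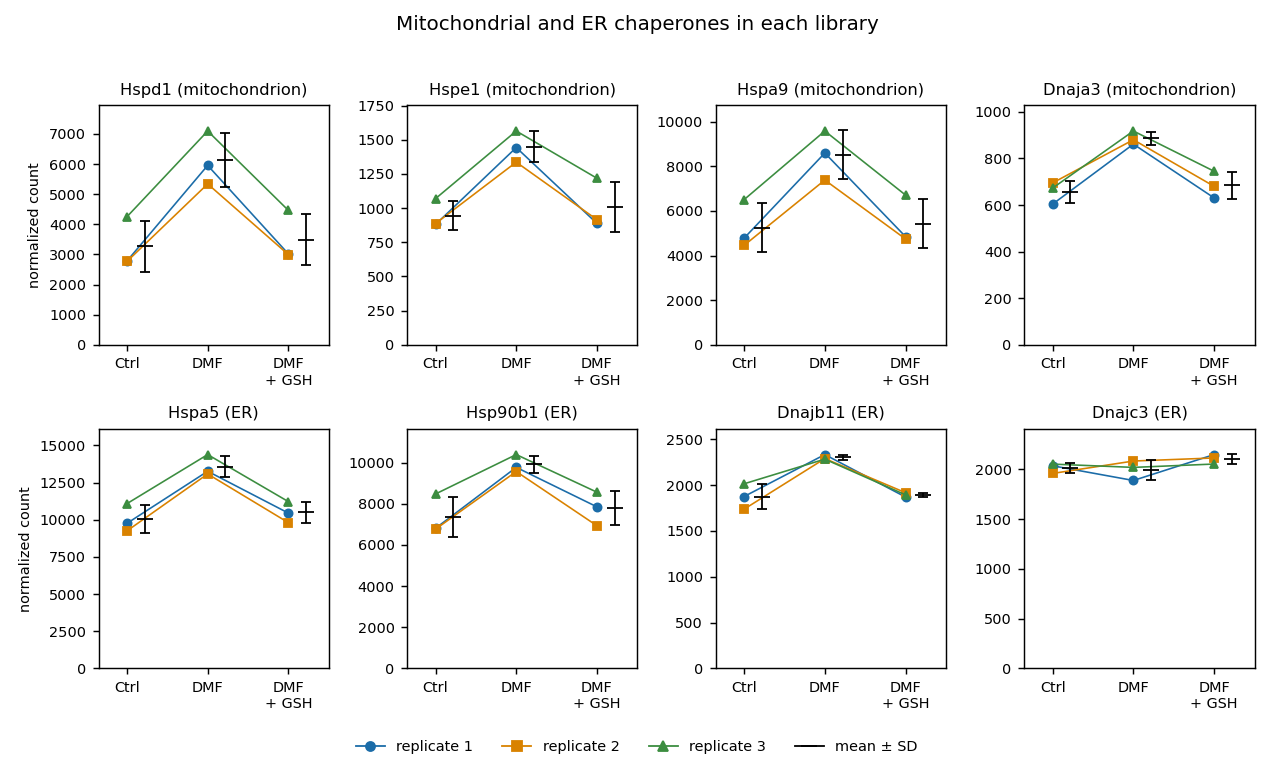
Normalized counts, from 0, of 4 mitochondrial chaperones (upper row) and 4 chaperones of the endoplasmic reticulum (lower row) in each library. Lines join equal replicate numbers and black marks give mean ± SD (n = 3); in 7 of the genes all DMF libraries are above all others, and in Dnajc3 the DMF libraries overlap with both other groups.

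The promoters of the chaperone genes were searched for a few short elements. The letters GAA, TTC and GAA in a row with 2 free bases between each, 3 inverted units of the element that heat shock factors bind, were searched on both strands in the RefSeq windows of GRCm38.p6 that run from 250 bases before to 50 after each start. Windows were found for 58 of the 72 genes (76 windows), and 6 of them, from Hspd1, Hspe1, Dnajb6 and Hsph1, held the letters, against 0.603% of all 32851 windows. TGAC and GC with 3 free bases between them, the core of the antioxidant response element, stood in 16 windows of 13 chaperone genes, against 12.4% of all windows, and CACGTG, the E-box, in 9 windows of 8 genes, against 7.15%. A match is a description of the letters and not a site of binding. The stretch shown first lies upstream of Hspe1 and also of an inner annotated start of Hspd1, so that it stands in windows of both genes, and it is set beside the stretch of Dnajb6, a cytosolic J-domain gene whose level with DMF was close to Ctrl. Both are written 5′ to 3′ on the plus strand, at chr1:55088029-55088106 and chr5:29735822-29735894, with the matches in capitals.
Hspe1 and Hspd1: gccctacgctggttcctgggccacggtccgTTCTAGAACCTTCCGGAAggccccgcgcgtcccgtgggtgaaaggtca
Dnajb6: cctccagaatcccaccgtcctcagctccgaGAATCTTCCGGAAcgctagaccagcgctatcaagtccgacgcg
In the shared stretch 2 matches, 1 on each strand, overlap into a longer run. Dnajb6 had 237, 195 and 206 normalized counts in Ctrl and 248, 198 and 218 with DMF, so that the groups overlapped, and its log2 fold change of 0.05 ± 0.10 did not pass the test (adjusted p = 0.703).

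All 8 subunits of TRiC rose, against 14.6% of all genes. TRiC is the cytosolic chaperonin that folds actin, tubulin and other proteins, and each of its rings is built from 8 different subunits encoded by Tcp1 and the Cct genes. Together they took 0.416% ± 0.0475 of the reads in Ctrl, 0.557% ± 0.0277 with DMF and 0.420% ± 0.0439 with DMF + GSH (mean ± SD, n = 3). The log2 fold changes of DMF against Ctrl ran from 0.30 to 0.68 with a median of 0.44, and every subunit was higher in all 3 replicate numbers. In all 8 the DMF libraries lay above the Ctrl libraries without overlap, as in 21.6% of all genes, and replicate 3 had the highest level in each group.

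Cct6a had the largest rise, with 3835, 3710.2 and 5213 normalized counts in Ctrl, 6712, 6056 and 7581 with DMF and 3975, 3979 and 5575 in DMF + GSH cells. The DMF levels were 1.61-fold those of Ctrl (log2 fold change of 0.68 ± 0.15, adjusted p = 0.0129), and 12.5% of its exons overlap Psph on the other strand. Cct3 had 3972, 3911 and 5224 in Ctrl, 6760.4, 6187 and 7086 with DMF and 3982, 4079 and 5255 after DMF + GSH, a log2 fold change of 0.62 ± 0.13 with DMF (adjusted p = 0.00965). For Cct7 the values were 4413, 4652 and 5384 in Ctrl, 7100.0, 7033 and 7936 with DMF and 4529.5, 4791 and 5648 in DMF + GSH cells. Of the 72 genes Cct7 had the smallest adjusted p (0.00457) at a log2 fold change of 0.61 ± 0.09. Cct8 rose from 5573, 5503 and 6996 in Ctrl to 8140.0, 7873 and 8838 with DMF, and had 5647, 5570.4 and 7033 after DMF + GSH (0.47 ± 0.11, adjusted p = 0.0153). Tcp1 stood at 5914, 5923 and 7537 in Ctrl, 7714, 7783 and 8631 with DMF and 6212, 5695 and 6749.9 after DMF + GSH, where the highest Ctrl library came close to the lowest DMF library. Its rise of 0.32 ± 0.10 had the largest adjusted p of the 8 (0.0420). Cct5, Cct4 and Cct2 rose by 0.40, 0.34 and 0.30. The testis form of the sixth subunit, Cct6b, had a mean of only 3.10 normalized counts and was not tested.

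The subunits differed in level although the ring holds them in equal number. Per kb of exon, the mean level in Ctrl ran from 686 normalized counts for Cct3 to 3141 for Cct2, and with DMF from 1048 for Cct3 to 3870 for Cct2. The lengths are those of all annotated exons of a gene joined, 6370 bases for Cct3 and 2557 for Cct2, so that exons a T cell does not use lower the value. The subunits with the lowest levels per kb in Ctrl, Cct3, Cct7 and Cct6a, had the highest log2 fold changes, and Cct2, with the highest level, had the lowest.

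**Figure D4:**
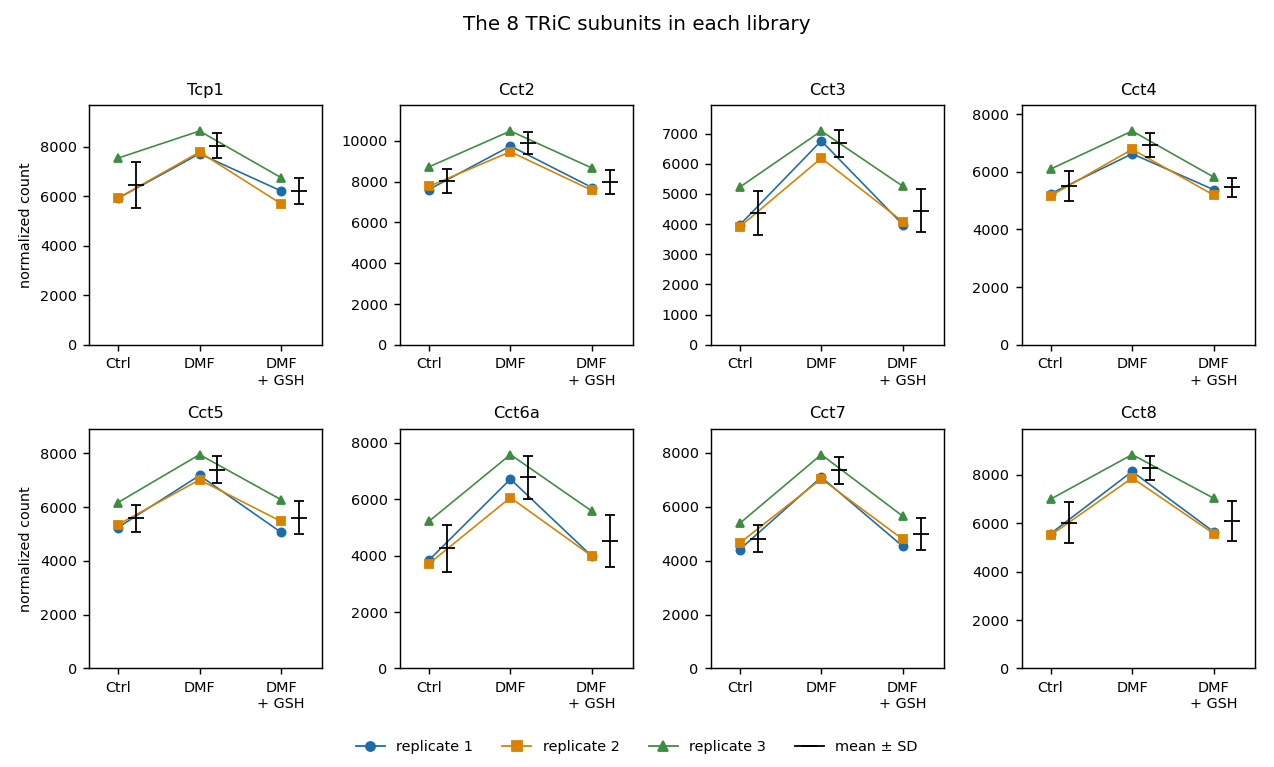
Normalized counts, from 0, of the 8 TRiC subunits in each library of Ctrl, DMF and DMF + GSH. Lines join equal replicate numbers and black marks give mean ± SD (n = 3); in each panel the DMF libraries lie above the Ctrl and the DMF + GSH libraries.

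Of the families, the 3 HSP90 genes took the largest share of the reads, 0.570% ± 0.0561 in Ctrl, 0.686% ± 0.0281 with DMF and 0.581% ± 0.0501 after DMF + GSH. Hsp90ab1, the constitutive cytosolic HSP90, had the highest level per kb of all 72 genes (18408 normalized counts per kb over the 9 libraries) and alone took 0.443% to 0.584% of the reads. It had 47868, 50097 and 57317 normalized counts in Ctrl, 59096, 60548 and 65381 with DMF and 47853, 51388 and 57303 in DMF + GSH cells. The DMF libraries lay above all others, but the log2 fold change of 0.26 ± 0.09 had an adjusted p of 0.0643. With the replicate block it was 0.00110, and over the alternatives it ran from 0.00110 to 0.254. Hsp90aa1, the form that heat and other stress raise, had 2368, 2296 and 3364 in Ctrl, 3768, 3738 and 4489.8 with DMF and 2427, 2444 and 3254 after DMF + GSH. Hsp90aa1 rose 1.51-fold with DMF (0.60 ± 0.15 on the log2 scale, adjusted p = 0.0170).

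Among the cytosolic HSP70 genes, Hspa8, the constitutive HSC70, had 7349.9, 7039.5 and 8317 normalized counts in Ctrl, 9970.2, 8623 and 10461 with DMF and 7453, 7523 and 8297 in DMF + GSH cells. It rose by 0.35 ± 0.10 (adjusted p = 0.0230). Hspa14, an HSP70 bound to the ribosome, rose by 0.26 ± 0.06 (adjusted p = 0.0176), from 1964, 1928 and 1998 in Ctrl to 2399, 2219 and 2444 with DMF. Hspa2 and Hspa13, the latter in the endoplasmic reticulum, were not called, with log2 fold changes of −0.23 and 0.00.

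The heat-inducible HSP70 pair had few counted reads. Hspa1b had 2.08, 3.72 and 7.11 normalized counts in Ctrl, 17.99, 11.98 and 12.58 with DMF and 9.90, 4.45 and 9.72 after DMF + GSH, which were 2, 4 and 5 reads, 17, 14 and 13 reads, and 9, 6 and 10 reads. All DMF libraries were above the others, but at these read counts its mean was under the minimum and it was not tested. Hspa1a, its near-identical neighbour, had 4 reads in all 9 libraries together, and reads that fit both genes could have been dropped or split in the counting. The small HSP Hspb1, another gene that stress usually raises, had 10 reads in all 9 libraries. Hspb6 was the 1 small HSP above the minimum and was not called, with a log2 fold change of −0.27 ± 0.17.

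The HSP110 genes, exchange factors that also hold unfolded proteins, did not all move the same way. Hsph1, the stress-responsive HSP105, had 2203, 2051 and 2897 normalized counts in Ctrl, 3888, 3274 and 4469 with DMF and 2428, 2089 and 3174 after DMF + GSH, and rose by 0.71 ± 0.18 (adjusted p = 0.0176). Hspa4 had 4920.0, 4914 and 6486 in Ctrl, 7813, 7082 and 8435 with DMF and 5309.6, 5091 and 6166 in DMF + GSH cells, and rose by 0.52 ± 0.12 (adjusted p = 0.0131). Hspa4l went the other way. It had 1172, 1156 and 1247 in Ctrl, 941, 993 and 1065 with DMF and 1273, 1199.8 and 1324 after DMF + GSH, so that all DMF libraries lay below all others. With a log2 fold change of −0.25 ± 0.07 (adjusted p = 0.0280) Hspa4l fell in Tc17 cells given DMF.

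Other exchange factors and the BAG genes rose in part. Bag2, a co-chaperone that inhibits the ubiquitin ligase CHIP, had 136, 163 and 206 normalized counts in Ctrl, 252, 279 and 303 with DMF and 174, 136 and 243 in DMF + GSH cells. It rose by 0.73 ± 0.20 (adjusted p = 0.0229), the second-largest value among the 72 genes. Bag1, which couples HSP70 to the proteasome, had 1416, 1339.5 and 1544 in Ctrl, 1977, 1934 and 2046 with DMF and 1359, 1396 and 1682 after DMF + GSH, and rose by 0.47 ± 0.09 (adjusted p = 0.00750). The exchange factor Hspbp1 rose by 0.48 ± 0.13 (adjusted p = 0.0219), from 663, 618 and 852 in Ctrl to 968, 943 and 1036, and had 628, 685 and 848 after DMF + GSH. Bag5 rose by 0.31 ± 0.10 (adjusted p = 0.0381). Bag6, a chaperone for membrane proteins on their way to the endoplasmic reticulum, was not called at 0.01. Bag3, which stress raises and which directs clients to autophagy, had 121, 77.1 and 125 in Ctrl, 159, 137 and 125 with DMF and 97.9, 77.2 and 87.5 in DMF + GSH cells. Its Ctrl and DMF libraries overlapped, and the log2 fold change of 0.40 ± 0.18 had an adjusted p of 0.111, or 0.0378 with the replicate block (range over the alternatives 0.0209 to 0.381). For Bag4 the block likewise changed the call (0.0279 against 0.107, range 0.0275 to 0.345), at a log2 fold change of 0.26.

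Both heat shock factors rose. Hsf1 had 599.7, 601 and 694 normalized counts in Ctrl, 877, 832 and 873 with DMF and 599, 633 and 728 after DMF + GSH, a log2 fold change of 0.45 ± 0.09 with DMF (adjusted p = 0.00906). Hsf2, a related factor that can form mixed trimers with Hsf1, had 227, 242 and 264 in Ctrl, 370.3, 299.6 and 322 with DMF and 255, 216 and 268 in DMF + GSH cells (0.43 ± 0.12, adjusted p = 0.0272). DMF libraries exceeded all Ctrl and DMF + GSH libraries for both genes. The activity of Hsf1 is set largely by its trimer form and phosphorylation, which these counts do not measure.

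Chaperones of the endoplasmic reticulum (ER) were mostly not called. Of 14 ER genes, 3 rose (21.4%, against 14.6% of all genes, or 23.7% with the replicate block, where the count was also 3) and 0 fell, against 13.3%, with a median log2 fold change of −0.0033. The 3 were the lumenal HSP70 Hspa5 (BiP), the lumenal HSP90 Hsp90b1 (GRP94) and Dnajb11, a J-domain partner of BiP. Hspa5 had 9757, 9249 and 11083 normalized counts in Ctrl, 13263, 13081 and 14385 with DMF and 10448, 9804 and 11219 after DMF + GSH, 1.36-fold higher with DMF (0.44 ± 0.09 on the log2 scale, adjusted p = 0.00903). Hsp90b1 had 6804, 6763 and 8471 in Ctrl, 9764, 9562 and 10385 with DMF and 7846, 6928 and 8557 in DMF + GSH cells (0.44 ± 0.11, adjusted p = 0.0162). Dnajb11 had 1876, 1738 and 2015 in Ctrl, 2334, 2289.9 and 2284 with DMF and 1870.3, 1918 and 1894 after DMF + GSH (0.30 ± 0.07, adjusted p = 0.0133). In all 3 the DMF libraries lay above every other library.

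Dnajc3, a J-domain protein that also restrains the kinase PERK, had 2035, 1958 and 2052 normalized counts in Ctrl, 1887, 2083 and 2019 with DMF and 2148, 2114 and 2053 in DMF + GSH cells. The DMF libraries overlapped with both other groups, and the log2 fold change of DMF against Ctrl was −0.01 ± 0.06 (adjusted p = 0.880). Dnajb9, the J-domain protein that represses the stress sensor IRE1 through BiP, had 298, 140.3 and 175 in Ctrl, 252, 138 and 207 with DMF and 325, 169 and 219 after DMF + GSH, with replicate 1 the highest in each group. Its log2 fold change of −0.01 ± 0.17 did not pass the test. Dnajc10, the disulfide reductase ERdj5, had 1518, 1441 and 1497 in Ctrl, 1272, 1363 and 1319 with DMF and 1601, 1497 and 1458 in DMF + GSH cells, so that every DMF library lay below every other. Its log2 fold change of −0.17 ± 0.07 had an adjusted p of 0.0730, and of 0.0235 with the replicate block (range over the alternatives 0.0235 to 0.328).

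The ER stress element, CCAAT and CCACG with 9 free bases between them, was searched on both strands in the same windows. It was found in windows of Hspa5, Hsp90b1 and Dnajc3, against 0.119% of all windows. The 3 stretches are shown because Hspa5 and Hsp90b1 rose with DMF while Dnajc3 overlapped with Ctrl. They are written 5′ to 3′ along the gene, at chr2:34771995-34772073 on the plus strand, chr10:86705503-86705686 on the minus strand and chr14:118937797-118937875 on the plus strand, with matches in capitals.
Hspa5: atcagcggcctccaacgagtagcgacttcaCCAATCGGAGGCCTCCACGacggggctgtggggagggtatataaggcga
Hsp90b1: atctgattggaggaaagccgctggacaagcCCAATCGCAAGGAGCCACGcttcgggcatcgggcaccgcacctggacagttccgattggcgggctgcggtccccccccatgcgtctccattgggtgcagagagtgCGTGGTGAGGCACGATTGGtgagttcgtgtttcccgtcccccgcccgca
Dnajc3: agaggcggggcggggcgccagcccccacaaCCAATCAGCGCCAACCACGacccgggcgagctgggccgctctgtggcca
Hsp90b1 holds 2 matches, 1 in each orientation, and Hspa5 and Dnajc3 hold 1 each.

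J-domain genes made up 38 of the 72 and mostly did not pass the test. Of these, 7 rose (18.4%, near the 14.6% of all genes) and 1 fell, against 13.3%, with a median log2 fold change of 0.04, whereas among the 34 other chaperone genes 24 rose and 1 fell, with a median of 0.42. With the replicate block 10 J-domain genes rose and 4 fell, against 23.7% and 21.4% of all genes. The 7 were Dnaja2, Dnaja3, Dnajb5, Dnajb11, Dnajc2, Dnajc11 and Dnajc21. Dnaja2, a cytosolic partner of HSC70, had 3076, 2898 and 3121 normalized counts in Ctrl, 4137, 3735 and 4196 with DMF and 3188, 2800.4 and 3355 after DMF + GSH (0.41 ± 0.08, adjusted p = 0.00897). Dnaja1 had 1137, 861 and 1132 in Ctrl, 1317, 1163 and 1271 with DMF and 1215, 1060.2 and 1178 in DMF + GSH cells. Its log2 fold change of 0.27 ± 0.10 had an adjusted p of 0.0698, or 0.00205 with the replicate block (range 0.00205 to 0.247). Dnajc21, which takes part in making the large ribosomal subunit, had 582, 635 and 705 in Ctrl, 909, 794 and 994 with DMF and 573, 584 and 811 after DMF + GSH (0.49 ± 0.13, adjusted p = 0.0251). Dnajc2, the ribosome-bound partner of Hspa14, rose by 0.42 ± 0.13 (adjusted p = 0.0379).

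Dnajb1 (HSP40), the classical heat-inducible partner of HSP70, gave no such difference. It had 1337, 1420.3 and 1401 normalized counts in Ctrl, 1356, 1465 and 1366 with DMF and 1244, 1417 and 1309.7 in DMF + GSH cells, and the groups overlapped. The log2 fold change of DMF against Ctrl was 0.01 ± 0.06 (adjusted p = 0.922), with 0.02, 0.04 and −0.04 in replicate numbers 1 to 3. Dnajb13, a gene known from sperm and cilia, was the 1 J-domain gene that fell, with a log2 fold change of −0.71 ± 0.24 (adjusted p = 0.0487), from 68.6, 66.0 and 52.6 in Ctrl to 28.6, 51.4 and 35.8 with DMF, and it had 58.3, 55.7 and 46.7 after DMF + GSH. Of its exons, 11.2% overlap Ucp2 on the other strand. Dnajc28, with the lowest level per kb of the 72 genes (4.80), had 15.6, 24.2 and 19.9 in Ctrl, 7.41, 18.8 and 8.71 with DMF and 13.2, 23.0 and 23.3 after DMF + GSH. Its libraries overlapped between groups, and the log2 fold change of −0.81 ± 0.32 had an adjusted p of 0.0808, or 0.0435 with the replicate block (range 0.0290 to 0.278). The block also changed the call for Dnajb2 (0.36, 0.0399 against 0.103, range 0.0399 to 0.266), Dnajc9 (−0.17, 0.0273 against 0.131, range 0.0273 to 0.438) and, outside the J-domain genes, Hspbap1 (−0.28, 0.0476 against 0.112, range 0.0476 to 0.432). For Dnaja4, 44.05% of the exons overlap Wdr61 on the other strand, and it was not called at 0.01.

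By compartment, 23 of 43 genes of the cytosol or nucleus rose, against 14.6% of all genes, and 2 fell, against 13.3%, with a median log2 fold change of 0.31. With the replicate block, 28 of these rose and 3 fell, while 6 mitochondrial genes rose and, in the ER, 3 rose and 1 fell, against 23.7% and 21.4% of all genes. The values for mitochondrial and ER genes were 5 of 8 with a median of 0.50 and 3 of 14 with a median of −0.0033. Among 7 genes placed elsewhere or not placed 0 were called in either direction, with a median of −0.15, and with the replicate block 2 of them fell. Compartments were assigned from general knowledge of each protein.

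With GSH added to DMF, the TRiC, HSP60/HSP10 and heat shock factor genes and 4 of 6 BAG genes fell against DMF alone, while the DNAJC and DNAJB families had medians near 0 (−0.0073 and 0.047 on the log2 scale). Of the 72 genes 29 fell, against 12.4% of all genes tested, and 2 rose, against 9.99%, and the median log2 fold change of DMF + GSH against DMF was −0.20. This comparison shares the DMF libraries with the one above, so that a low or high DMF library enters both. In 33 genes all DMF + GSH libraries were below all DMF libraries, against 20.5% of all genes, and in 4 they were all above, against 17.8%. The replicate block gave 33 lower, against 21.6% of all genes, and 3 higher, against 19.9%. Without a block, the count of lower genes was 0 when DMF replicate 1, DMF replicate 3 or DMF + GSH replicate 1 was left out and 1 when DMF + GSH replicate 2 was left out, and in those fits 0.0431% to 0.647% of all genes fell. It was 22 to 31 in the other fits, against 8.35% to 14.2%, and with the block 32 to 35 in each, against 16.2% to 21.9%. The count of higher genes in these blocked fits was 1 to 4, against 14.7% to 20.1% of all genes.

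Hspd1 had the largest fall, with a log2 fold change of −0.83 ± 0.19 (adjusted p = 0.0160). Bag3 came next at −0.67 ± 0.18 (adjusted p = 0.0258), and all its DMF + GSH libraries were below all DMF libraries. The TRiC subunits fell in 8 of 8, with log2 fold changes from −0.60 to −0.31 and a median of −0.43. Cct6a and Cct3 were at the lower end (−0.60 and −0.60) and Cct2 at the other (−0.31). Among mitochondrial genes that fell, the log2 fold change was −0.66 ± 0.17 for Hspa9 (adjusted p = 0.0232), −0.59 ± 0.13 for Dnajc11 (adjusted p = 0.0153) and −0.54 ± 0.12 for Hspe1 (adjusted p = 0.0165). In the cytosol it was −0.61 ± 0.18 for Hsph1 (adjusted p = 0.0358), −0.57 ± 0.15 for Hsp90aa1 (adjusted p = 0.0246) and −0.32 ± 0.10 for Hspa8 (adjusted p = 0.0402). The ER genes Hspa5, Hsp90b1 and Dnajb11 fell too, at −0.37, −0.35 and −0.28 (adjusted p = 0.0187, 0.0396 and 0.0200). Both heat shock factors fell, Hsf1 at −0.40 and Hsf2 at −0.42.

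The 2 genes that rose with GSH were Hspa4l, by 0.34 ± 0.07 (adjusted p = 0.0148), and Dnajc10, by 0.20 ± 0.07 (adjusted p = 0.0490). For Hsp90ab1 the log2 fold change was −0.24 ± 0.09 (adjusted p = 0.0835, or 0.00186 with the replicate block, range 0.00186 to 0.306). The block also changed the call for Hspa14 (−0.18, 0.00903 against 0.0682, range 0.00903 to 0.247), Dnajc2 (−0.39, 3.21e-05 against 0.0553, range 3.21e-05 to 0.239), Dnajb5 (−0.26, 0.0138 against 0.0503, range 0.0138 to 0.193) and Dnajc9 (0.16, 0.0332 against 0.150, range 0.0332 to 0.408). In the 9 blocked fits that left out a library, Hsp90ab1 and Dnajc2 were called in 9, Hspa14 in 8, Dnajb5 in 7 and Dnajc9 in 4. Dnaja1 had a smaller difference, −0.12 ± 0.10, that was not called, and Dnajb1 and Dnajc3 were not called either, at −0.08 and 0.08.

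For DMF + GSH against Ctrl, 0 of the 72 genes were called by limma, against 0% of all 11599 genes tested. At an unadjusted p under 0.05 limma found 0 of the 72 genes, the replicate block found 2 and edgeR found 0, and neither of the latter called any of them after adjustment. Over all 11599 genes these counts were 222, 599 and 216. The median log2 fold change was 0.03, and it was −0.014 without Ctrl replicate 2, −0.024 without DMF + GSH replicate 3 and 0.083 without DMF + GSH replicate 2. Of the 72 genes 52 were above 0, against 49.7% of all genes. With 1 library left out and no block, 27 to 53 were above 0. Log2 fold changes of DMF + GSH against Ctrl were 0.10 ± 0.19 for Hspd1, 0.10 ± 0.18 for Hsph1, 0.07 ± 0.09 for Hspa5 and 0.03 ± 0.15 for Hsp90aa1. The TRiC subunits ran from −0.05 to 0.08. Bag3 was at −0.27 ± 0.18, with −0.30, 0.00 and −0.51 in replicate numbers 1 to 3, and Dnaja1 at 0.15 ± 0.10. A missed threshold does not show that the levels were equal. Standard errors ran from 0.06 to 0.32 over the 72 genes, and differences larger than these could go uncalled.

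Partners of the chaperones that carry other names were counted from lists written from general knowledge. Counts of genes that rose are to be read against the 14.6% of all genes that rose with DMF, or 23.7% with the replicate block. Of 16 HSP90 co-chaperones 8 rose with DMF and 0 fell. Ptges3 (p23), which closes HSP90 on its client, had 567 to 983 normalized counts in Ctrl and 956 to 1392 with DMF, and rose by 0.70 ± 0.21 (adjusted p = 0.0352). Ahsa1, which speeds the ATPase of HSP90, had 1549 to 1984 in Ctrl and 2427 to 2782 with DMF, a rise of 0.59 ± 0.11 (adjusted p = 0.00831). The immunophilins Ppid and Fkbp4 rose by 0.68 ± 0.15 (adjusted p = 0.0123) and 0.66 ± 0.17 (adjusted p = 0.0206). Of 9 HSP70 partners tested 4 rose and 0 fell, or 4 and 1 with the replicate block, where Hscb (−0.35) had an adjusted p of 0.0112 against 0.134 without it. The 4 were Hyou1, the large ER exchange factor (0.62 ± 0.09, adjusted p = 0.00490), the mitochondrial exchange factor Grpel1 (0.46), St13 (0.37) and the ubiquitin ligase Stub1, known as CHIP (0.37).

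In the cytosol, 4 of 9 prefoldin subunits and TRiC partners rose and 0 fell. Prefoldin hands actin and tubulin to TRiC, and its subunits Pfdn4, Pfdn2, Pfdn1 and Pfdn6 rose by 0.61, 0.52, 0.44 and 0.42. Of 12 mitochondrial chaperones and proteases tested 6 rose and 0 fell, or 8 and 1, again Hscb, with the replicate block. Clpp, the matrix protease subunit, had 314 to 445 normalized counts in Ctrl and 510.2 to 603 with DMF (0.64 ± 0.15, adjusted p = 0.0162). Trap1, the mitochondrial HSP90, had 1761 to 2015 in Ctrl and 2308 to 2449 with DMF (0.36 ± 0.08, adjusted p = 0.0105). The protease Htra2 and the exchange factor Grpel1 both rose by 0.46.

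ER folding factors rose in 10 of 21 genes tested and fell in 0, or rose in 12 and fell in 1 with the replicate block. The 1 was Derl3 (−0.79 ± 0.41, adjusted p = 0.0340 with the block against 0.171 without). Hyou1 is among them too, with 2707 to 3295 normalized counts in Ctrl and 4216 to 4751 with DMF. The lectin chaperone Calr rose by 0.50 ± 0.09 (adjusted p = 0.00704), with 8152 to 9808 in Ctrl and 11892 to 13374 with DMF, and Creld2 and Sdf2l1, both induced by ER stress, by 0.60 and 0.57. Of 8 regulators of the unfolded protein response 1 rose (2 with the replicate block) and 2 fell, against 13.3% of all genes. The sensor Eif2ak3 (PERK) had 391 to 511 in Ctrl and 335 to 355 with DMF and fell, with a log2 fold change of −0.40 ± 0.11 (adjusted p = 0.0254). Atf6 fell as well, at −0.35 ± 0.08 (adjusted p = 0.0110). Atf6b rose by 0.28 ± 0.08 (adjusted p = 0.0238). Xbp1, whose spliced form turns on ER chaperone genes, was at 0.39 ± 0.13 (adjusted p = 0.0509), or 7.15e-05 with the replicate block.

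**Figure D5:**
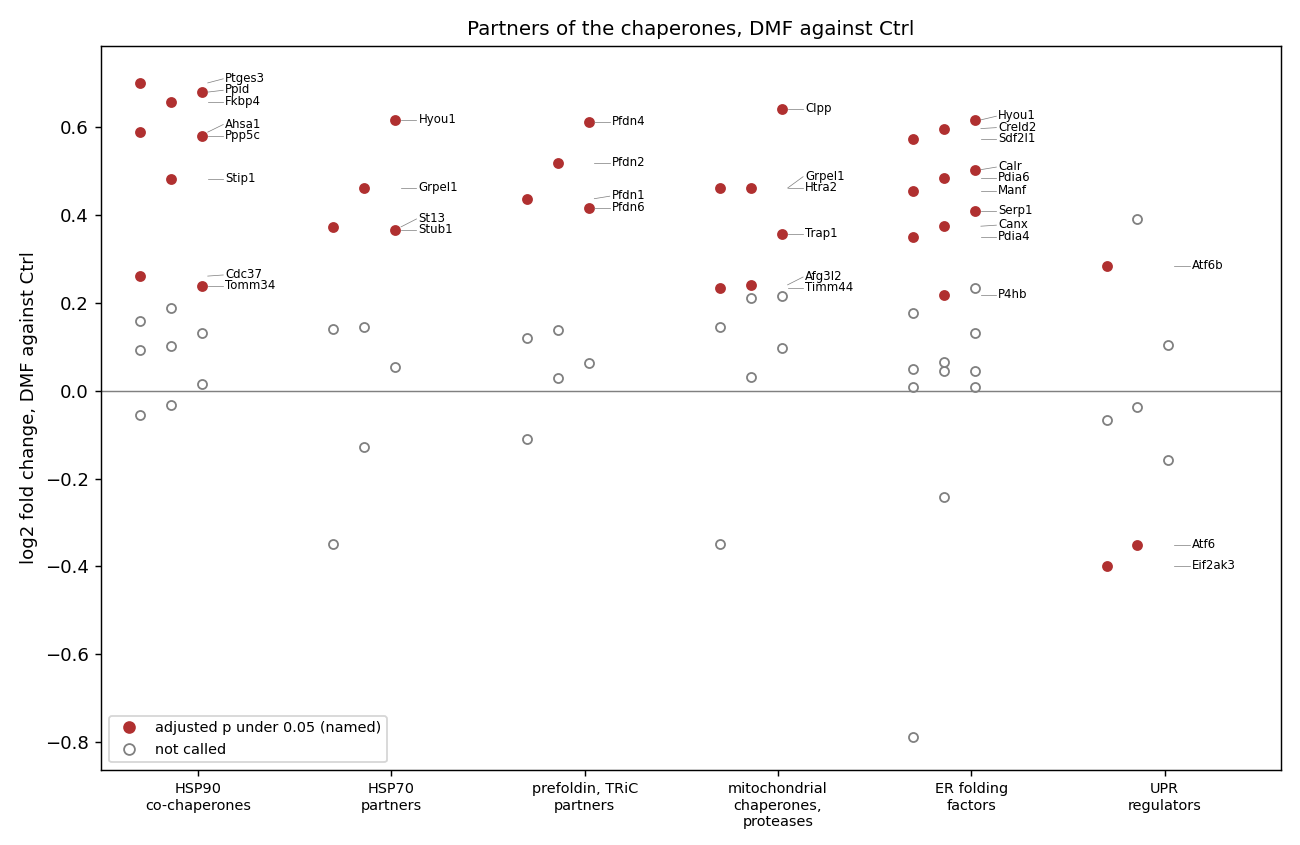
Log2 fold change of DMF against Ctrl for genes of 6 partner lists, with called genes filled and named. The called genes of 5 lists lie above 0, and among the regulators of the unfolded protein response (UPR) Atf6 and Eif2ak3 lie below; Hyou1 and Grpel1 stand in 2 lists each.

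With GSH added to DMF, these lists gave the following counts of fallen genes, to be read against 12.4% of all genes (21.6% with the replicate block): 6 of 16 HSP90 co-chaperones (9 with the block), 4 of 9 HSP70 partners, 3 of 9 prefoldin subunits and TRiC partners (5 with the block), 7 of 12 mitochondrial chaperones and proteases and 8 of 21 ER folding factors (12 with the block), and 0 rose in any of the 5. Among the regulators 1 fell (2 with the block) and 2 rose, against 9.99% of all genes. Xbp1 fell, with a log2 fold change of −0.43 ± 0.13 (adjusted p = 0.0441), while Eif2ak3 rose by 0.52 ± 0.11 (adjusted p = 0.0147) and Atf6 by 0.31 ± 0.08 (adjusted p = 0.0206). Clpp was at −0.74 ± 0.15 (adjusted p = 0.0143) and Hyou1 at −0.57 ± 0.09 (adjusted p = 0.0102). A list of 18 genes known as targets of Hsf1 had 15 tested genes, 10 of them among the 72. With DMF 9 rose, against 14.6% of all genes, or 13 with the replicate block, against 23.7%. Their median log2 fold change over the 15 was 0.48, and 1 gene fell, Hspa4l, against 13.3% of all genes. With GSH added 10 fell, or 12 with the block, and 1 rose. The targets that rose included Cacybp (0.79 ± 0.18, adjusted p = 0.0123), a partner of ubiquitin ligases, while Dnajb1 overlapped between the groups and the classical targets Hspa1a, Hspa1b and Hspb1 stayed under the minimum.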

How the data were processed

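RNA-seq of 9 libraries of murine Tc17 cells was used, 3 each of Ctrl, DMF and DMF + GSH, grouped by the sample labels. The authors aligned single reads of 50 bp to GRCm38 with STAR 2.4.0b and counted them per gene with featureCounts. The deposited values are a signal: the authors' gene counts divided by a DESeq2 size factor per library (normalized counts). Divided by the value of 1 read in their library, 100% of the values came out as whole reads (tolerance of 0.01 reads). The authors' deposited log2 fold changes, their test statistic (a score) and their p-values and adjusted p-values compare Ctrl with DMF and were not used. The sources used here do not say whether the counting used strand or multiply mapped reads.

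Groups were compared with limma-trend (limma 3.58.1, R 4.3.3), with terms for group and preparation batch, on the log2 of the normalized count plus 1 in 1 fit of all libraries and the 11599 genes whose mean reached 10, with Benjamini-Hochberg adjustment over all genes tested. Fold changes are on this log2 scale and understate those of low genes. On simulated counts it was checked that known changes were recovered. edgeR 4.0.16 (quasi-likelihood test) was run on the recovered reads and called 3272 genes for DMF against Ctrl, where limma called 3242. Pseudocounts, minimum, scaling (TMM, quantile), batch term, replicate block, libraries in the fit and each library left out were varied. The fit with the replicate block and each library left out was added after seeing the data. Equal replicate numbers marked libraries that deviated alike from their group means, with correlations over genes of 0.447 to 0.578 in 9 pairs. In 18 pairs with different numbers the correlations were −0.471 to −0.0621. Deviations from a mean cancel within each group, so that these negative values follow from the positive ones and add no evidence. Replicate 1 forms batch 1, and the numbers were taken to pair the samples. The 72 genes and all lists were chosen with earlier results of these data known. Values in every library are given for called genes, up to 20 by size of change with DMF, and for defining genes of each family, and up to 4 called genes are named per partner list. Genes named beyond this, such as those whose call the block changed or whose promoter is shown, were chosen after their values were seen. Gene positions are from GENCODE vM21 (GRCm38), promoter sequences from RefSeq (GRCm38.p6). Figures were made with Matplotlib 3.10.9.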

Additional observations from a re-analysis of the deposited data

How the results depend on the processing

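The count of chaperone genes that rose with DMF was 28 to 37 under the alternatives other than leaving out a library, and that of genes lower with DMF + GSH than with DMF 27 to 33. The few genes moving the other way depended on the setting. The 2 that fell with DMF became 0 with no minimum, 1 with a minimum mean of 50, with only the 6 libraries compared or with edgeR, and 6 with the replicate block. The 2 that rose with DMF + GSH against DMF became 1 with no minimum, no batch term, only the 6 libraries, robust eBayes or edgeR, and 3 with the replicate block. The replicate block changed no call of a chaperone gene other than those given above. Leaving out 1 library at a time, the counts that rose and fell ran from 0 to 33 and 0 to 2 for DMF against Ctrl, and from 0 to 4 and 0 to 31 for DMF + GSH against DMF. The median log2 fold change then ran from 0.21 to 0.26 for DMF against Ctrl, from −0.23 to −0.15 for DMF + GSH against DMF and from −0.024 (DMF + GSH replicate 3 left out) to 0.083 for DMF + GSH against Ctrl. Fewer samples were in each of these fits; other causes were not tested. Genes under the minimum mean, Hspa1b among them, have values in few reads and no reported test, and 3 libraries per group limit the precision of every comparison.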
